A study of Homo sapiens with 12 samples.

Results

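The genes described here are 10 negative-feedback regulators and transcription factors that respond to ERK signalling: the phosphatases *DUSP4*, *DUSP5* and *DUSP6*, the Sprouty genes *SPRY2* and *SPRY4*, the Sprouty-related genes *SPRED1* and *SPRED2*, the ETS factors *ETV4* and *ETV5*, and *PHLDA1*. They were taken by name from the 30358 genes listed in the count tables of both cell lines, and all 10 were found and passed the filter on low counts in each line. In the libraries labelled U138MG, *ETV5* and *SPRY4* passed it through the treated group alone. *ETV5* was part of the reason for the choice because of its rise in the libraries labelled U138MG, so the treatment changes in those libraries, and their difference from the other line, are given as a description without a test. The rule for the choice cites no KYSE30 value, and the KYSE30 changes were tested, but the genes were listed with earlier results of both lines known. Poly-A RNA was sequenced after 48 h of 100 nM PTDSS1i, an inhibitor of the phosphatidylserine synthase PTDSS1, or of DMSO, its vehicle. KYSE30 is an esophageal squamous cell carcinoma line and U138MG is labelled glioblastoma, both are labelled WT, and each line had 3 libraries per treatment, 12 in all. The series describes these as biological replicates. The KYSE30 libraries are labelled as one batch and the U138MG libraries as another, so line and batch cannot be told apart.

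ERK is the last kinase of the RAS, RAF, MEK cascade, which carries signals from growth factor receptors to the nucleus. Active ERK switches on genes whose products damp the same cascade. DUSP phosphatases remove the activating phosphates from ERK and related kinases, Sprouty proteins act between the receptor and RAF, and SPRED proteins bring the RAS inactivator neurofibromin to the membrane. ETV4 and ETV5 belong to the PEA3 group of ETS factors, which are induced by growth factor signalling and carry part of its transcriptional output. Their transcripts are widely used as a readout of ERK pathway output in tumour cells. Only transcripts were measured here, and phosphorylated ERK was not analysed.

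Each library held between 18800932 and 26514658 counts, and 3 counts corresponded to 0.113 to 0.160 CPM, the counts of a gene per 1000000 counts of its library. Levels are given as normalized CPM, after scaling by edgeR's TMM factors within each line, unless another scale is named. The libraries labelled U138MG had low or no counts of most glial and mesenchymal markers: *S100B* and *OLIG2* had 0 counts in every library and *VIM* had 3 to 11 counts, while the epithelial genes *KRT5*, *CDH1* and *EPCAM* stood at 1470 ± 83.4, 463 ± 2.14 and 248 ± 8.52 CPM of the library total in DMSO (SD, n = 3). All 10 squamous epithelial markers had a count in both lines, and of the 10 glial and mesenchymal markers 8 had a count in each. In the libraries labelled U138MG these included *SOX2* at 38.9 ± 1.89, *CDH2* at 11.9 ± 0.869, *GFAP* at 2.36 ± 0.183 and *AQP4* at 2.14 ± 0.176 CPM of the library total in DMSO, where *GFAP* and *AQP4* had 0 to 1 count in any KYSE30 library. *SOX2* was higher in KYSE30 DMSO, at 99.4 ± 3.27, and *CDH2* was lower, at 6.26 ± 0.720. Some of the markers with a count had very few. In the libraries labelled U138MG, *KRT14* had 1 to 7 counts, *KRT6A* 7 to 36 and *FABP7* 0 to 2. Summed over the KYSE30 libraries, *GFAP*, *CHI3L1* and *AQP4* had 1 count each and *FABP7* had 3. *S100B* and *OLIG2* are not listed for KYSE30. In KYSE30 *KRT5* had 0 to 3 counts, but *CDH1* and *TP63* stood at 514 ± 25.5 and 98.2 ± 7.41 CPM in DMSO. The name U138MG is therefore used below only as the label of those libraries. The labels also list the KYSE30 growth medium for them.

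The genes lie on 9 chromosomes of GRCh38 in the GENCODE annotation, and 8 of them are on the minus strand. *DUSP6* (chr12:89347232-89353271) and *PHLDA1* (chr12:76025447-76033932) share chromosome 12 but lie 13.3 Mb apart. *ETV5* is at chr3:186046308-186110318, *ETV4* at chr17:43527844-43579620 and *DUSP5* at chr10:110497838-110511544. The Sprouty genes lie at chr13:80335976-80340951 (*SPRY2*) and chr5:142310427-142326455 (*SPRY4*), and the SPRED genes at chr15:38252326-38357249 (*SPRED1*) and chr2:65310851-65432637 (*SPRED2*).

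Promoter sequences from RefSeq (GRCh38.p14) matched 6 of the genes, *DUSP6*, *SPRY2*, *SPRY4*, *SPRED1*, *SPRED2* and *PHLDA1*, with 9 windows in all, since *SPRY2* has 3 starts in that table and *SPRED2* has 2. The 250 bases before each RefSeq transcription start were searched on both strands for an AP-1 site (TGANTCA), a cAMP response element (TGACGTCA), an ETS site (CCGGAAG), a site of the repressor capicua (TNAATGNA) and a GC box (GGGCGG). None of the 9 windows held the AP-1, cAMP response or ETS letters, which 6.57%, 1.65% and 8.52% of 35116 promoters hold. The GC box was present in 4 of the 9 windows, 1 each of *SPRY2*, *SPRY4*, *SPRED1* and *PHLDA1*, a share near the 42.6% of all promoters. The capicua letters were present in 1 of the 9, that of *DUSP6*, also near the 9.77% of all promoters. Capicua is a repressor of ETV genes that ERK signalling inactivates, and so the stretch around that match is shown, at chr12:89352507-89352536 on the minus strand, with the match in capitals. All 250 bases of that window lie in an annotated exon of *DUSP6*, whose GENCODE gene starts further upstream, and in an exon of an antisense gene.
DUSP6: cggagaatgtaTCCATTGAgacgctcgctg
The *SPRY2* window at chr13:80341127-80341376, minus strand, overlaps no annotated exon and is shown as the example of a promoter with GC boxes, which are in capitals on either strand.
SPRY2: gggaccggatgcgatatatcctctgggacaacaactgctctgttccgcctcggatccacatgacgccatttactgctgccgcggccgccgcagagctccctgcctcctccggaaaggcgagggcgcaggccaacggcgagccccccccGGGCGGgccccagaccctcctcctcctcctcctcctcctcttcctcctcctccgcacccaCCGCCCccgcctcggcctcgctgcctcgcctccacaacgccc
These matches are letters in a window, and binding of any factor was not measured.

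In KYSE30 cells, 9 of the 10 genes were higher after PTDSS1i and 1, *SPRED1*, was lower. In edgeR's quasi-likelihood test, with p-values adjusted by Benjamini-Hochberg over all 16389 tested genes and a threshold of 0.05, 30.1% of genes were called higher and 32.0% lower. The phosphatases and *SPRY4* rose most, and the ETS factors and the SPRED genes least. The median log2 fold change of the 10 genes was 0.59, against -0.025 over all tested genes, and only *DUSP5* passed a log2 fold change of 1, as 6.40% of all genes did upwards. None of the 10 was called below -1, as were 7.04% of all genes, and none reached 2, as did 1.23%. Treated and control libraries were fully apart for all 10, 9 of them upwards, and this separation also held for 66.3% of all tested genes, with 32.1% apart upwards. In bulk RNA, a change in the share of cells that express a gene and a change in its RNA per cell cannot be told apart.

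*DUSP5*, a nuclear phosphatase specific for ERK, stood at 51.7, 42.9 and 46.2 normalized CPM in the DMSO libraries of KYSE30 and at 142, 140.5 and 137 in the PTDSS1i libraries. All 3 treated libraries lay well above the controls, and the log2 fold change was 1.57 (SE 0.0613, adjusted p = 2.90e-15 in edgeR). *DUSP6*, the cytoplasmic ERK phosphatase, went from 55.2, 62.6 and 58.3 to 111, 107 and 112, a log2 fold change of 0.91 (SE 0.0564, adjusted p = 7.09e-12 in edgeR). For *DUSP4* (chr8:29333064-29350668), a nuclear phosphatase with a wider choice of kinases, the DMSO values were 169, 149 and 159.7 and the PTDSS1i values 274, 288 and 293, a log2 fold change of 0.84 (SE 0.0546, adjusted p = 1.38e-11 in edgeR). The spread within a treatment was small beside these shifts for all 3 phosphatases.

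Both Sprouty genes also rose in KYSE30. *SPRY4* was at 32.6, 28.1 and 33.8 normalized CPM in DMSO and at 50.5, 50.7 and 54.6 in PTDSS1i, a log2 fold change of 0.72 (SE 0.0693, adjusted p = 9.37e-09 in edgeR). *SPRY2* was at 38.1, 44.2 and 45.3 in DMSO and at 64.2, 60.7 and 62.1 in PTDSS1i, a log2 fold change of 0.55 (SE 0.0653, adjusted p = 2.11e-07 in edgeR). The treated libraries of each gene were close together and above every control. The SPRED genes, which act on RAS through neurofibromin, moved little and in opposite directions. *SPRED2* stood at 57.5, 50.8 and 53.2 in DMSO and at 62.7, 59.2 and 66.8 in PTDSS1i, a log2 fold change of 0.23 (SE 0.0626, adjusted p = 0.00353 in edgeR). *SPRED1* stood at 16.8, 17.4 and 17.7 in DMSO and at 15.8, 14.6 and 14.9 in PTDSS1i, a log2 fold change of -0.20 (SE 0.0811, adjusted p = 0.0389 in edgeR). The call on *SPRED1* was lost in DESeq2 (adjusted p = 0.137) and when any of 4 libraries was left out in edgeR, DMSO replicate 2 (adjusted p = 0.0514) or 3 (0.0948) or PTDSS1i replicate 2 (0.129) or 3 (0.123).

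*ETV5* in KYSE30 was at 77.7, 65.1 and 74.5 normalized CPM in DMSO and at 85.8, 82.4 and 90.2 in PTDSS1i, a log2 fold change of 0.25 (SE 0.0630, adjusted p = 0.00165 in edgeR). Its relative *ETV4* was at 67.9, 65.8 and 69.2 in DMSO and at 77.3, 74.1 and 74.6 in PTDSS1i, a log2 fold change of 0.16 (SE 0.0533, adjusted p = 0.0151 in edgeR). Both factors were thus expressed in the controls already and were only 1.19 and 1.11 times as high after treatment. With scaling to library size alone, in place of TMM, *ETV4* (log2 fold change 0.05, adjusted p = 0.402 in edgeR) and *SPRED2* (0.12, adjusted p = 0.0801) were no longer called, and without PTDSS1i replicate 1 *ETV4* was not called either (adjusted p = 0.0688 in edgeR). *PHLDA1*, which encodes a protein with a pleckstrin homology-like domain, was the most abundant of the 10 per length. Its values were 447, 376 and 375 in DMSO and 638, 608 and 619 in PTDSS1i, a log2 fold change of 0.64 (SE 0.0622, adjusted p = 1.80e-08 in edgeR). The highest control, DMSO replicate 1, was still below the lowest treated library.

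**Figure D1:**
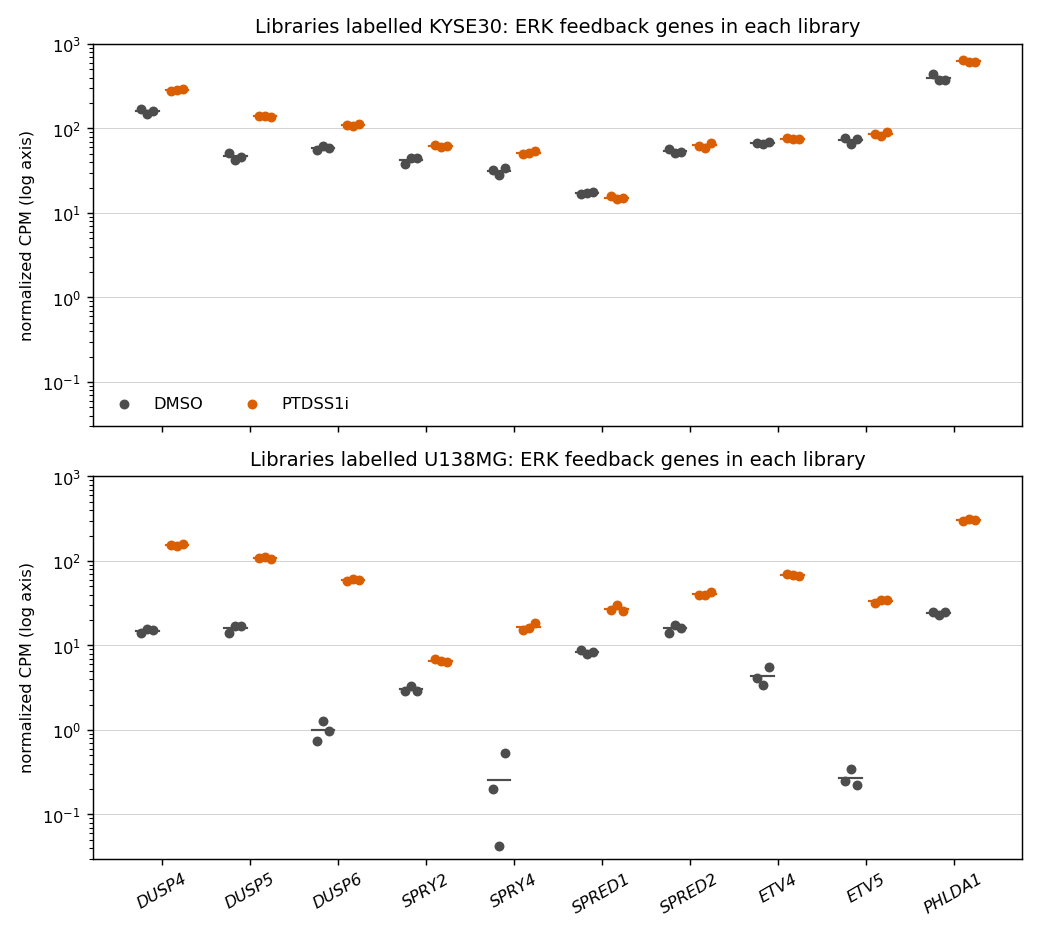
Normalized CPM (log axis) of the 10 genes in each of the 12 libraries, with KYSE30 above and the libraries labelled U138MG below, points for libraries and short lines for the mean of 3. In the lower panel *DUSP6*, *SPRY4* and *ETV5* go from means of 1.00, 0.258 and 0.271 in DMSO to 59.7, 16.6 and 33.8 in PTDSS1i, while the same genes in the upper panel start at means of 58.7, 31.5 and 72.4.

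In the libraries labelled U138MG, all 10 genes were higher after PTDSS1i and none was lower. Each was beyond a log2 fold change of 1, where 8.19% of the 17666 tested genes were called upwards at an adjusted p under 0.05 in edgeR, and 7 were beyond 2, as were 2.61% of all genes. These changes are part of what the genes were chosen on, and nothing is read from the counts. The median log2 fold change was 3.49, against -0.026 over all tested genes. The treatments did not overlap for any of the 10, and 71.4% of all tested genes also had this separation, with 35.5% apart upwards.

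*ETV5* had the largest change of the 10 and was 18th from the top among 17666 genes. It stood at 0.250, 0.342 and 0.222 normalized CPM in DMSO, from 5, 8 and 5 counts, and at 31.7, 34.9 and 34.9 in PTDSS1i, from 723, 759 and 873 counts. The controls were thus close to the limit of detection and the treated libraries were at a level that is readily measured. The ratio of the means was 124.8, with a 95% counting interval of 78.3 to 210 that covers counting error only. The log2 fold change was 6.93 (SE 0.153 from the edgeR test, and 0.353 in DESeq2). *ETV4* went from 4.14, 3.37 and 5.64 to 69.5, 68.0 and 66.2, a log2 fold change of 3.95 (SE 0.101). Relative to their mean, the treated libraries of *ETV4* were closer together than its controls.

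*DUSP6* went from 0.749, 1.28 and 0.976 normalized CPM in DMSO, from 15, 30 and 22 counts, to 57.5, 62.0 and 59.7 in PTDSS1i, from 1310, 1347 and 1494 counts. It was nearly off in the controls and had a log2 fold change of 5.87 (SE 0.109, and 0.191 in DESeq2). *DUSP4* stood at 14.1, 15.5 and 15.4 in DMSO and at 153, 149 and 158 in PTDSS1i, a log2 fold change of 3.35 (SE 0.0511). *DUSP5* had DMSO values of 14.1, 17.2 and 16.8 and PTDSS1i values of 107, 112 and 106, a log2 fold change of 2.75 (SE 0.0585). Among the phosphatases the order of change was thus *DUSP6*, *DUSP4*, *DUSP5* here, while *DUSP5* came first in KYSE30. *DUSP6* and *DUSP4* were close in KYSE30, and without DMSO replicate 1 *DUSP4* (0.89) was above *DUSP6* (0.87).

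The Sprouty genes parted in the libraries labelled U138MG. *SPRY4* had 4, 1 and 12 counts in DMSO and 346, 351 and 464 in PTDSS1i, or 0.200, 0.0427 and 0.532 against 15.2, 16.2 and 18.5 normalized CPM. Its control libraries differed more than 10-fold among themselves, so its log2 fold change of 5.98 (SE 0.286) rests on few reads and was 7.11 without DMSO replicate 3, the library with 12 counts. DESeq2 gave an SE of 0.636 for *SPRY4*. The ratio of its means was 64.4, with a 95% counting interval of 40.3 to 112. *SPRY2* had the smallest change of the 10, from 2.90, 3.33 and 2.93 to 6.84, 6.58 and 6.43 normalized CPM, a log2 fold change of 1.11 (SE 0.156). That value was 0.97 with scaling to library size alone or with upper-quartile scaling. *SPRED1*, which was lower in treated KYSE30 cells, went from 8.89, 7.86 and 8.39 to 26.1, 30.2 and 25.5, a log2 fold change of 1.70 (SE 0.0897). *SPRED2* went from 14.0, 17.7 and 16.2 to 40.1, 40.0 and 42.5, a log2 fold change of 1.35 (SE 0.0738). All the treated libraries of both SPRED genes were above all their controls.

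*PHLDA1* went from 25.2, 23.1 and 25.2 normalized CPM in DMSO to 301, 311 and 302 in PTDSS1i. The log2 fold change was 3.64 (SE 0.0435), with the smallest standard error of the 10. The summed squamous marker level moved with treatment in the same libraries, from 7264 to 8104 CPM of the library total in DMSO to between 2830 and 2974 in PTDSS1i, and the glial and mesenchymal sum from between 55.7 and 57.3 to between 23.5 and 24.9. The members of each list did not move together. In mean CPM, *KRT15* went from 4861 to 458 and *KRT5* from 1470 to 526, while *SFN* went from 282 to 1064 and *EPCAM* from 248 to 348. In the other list *SOX2* went from 38.9 to 4.29, while *CHI3L1* went from 0.503 to 3.58 and *NES* from 0.556 to 2.05. In KYSE30 those sums were 1284 to 1344 in DMSO and 1733 to 1747 in PTDSS1i for the squamous list, and 107 to 114 and 118 to 124 for the other. There too the members of each list moved both ways. In mean CPM, *KRT13* went from 151 to 38.3 and *TP63* from 98.2 to 68.1, while *SFN* went from 200 to 522 and *CDH1* from 514 to 703. In the other list *SOX2* went from 99.4 to 88.0 and *VIM* from 3.99 to 24.6. Counts of mitochondrially encoded genes held 1.11 to 1.15% of the U138MG-labelled DMSO libraries and 1.65 to 1.75% of the PTDSS1i libraries, and 7.31 to 7.67% and 6.47 to 6.78% in KYSE30. The part of these shifts in the changes of the 10 genes was not tested.

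**Figure D2:**
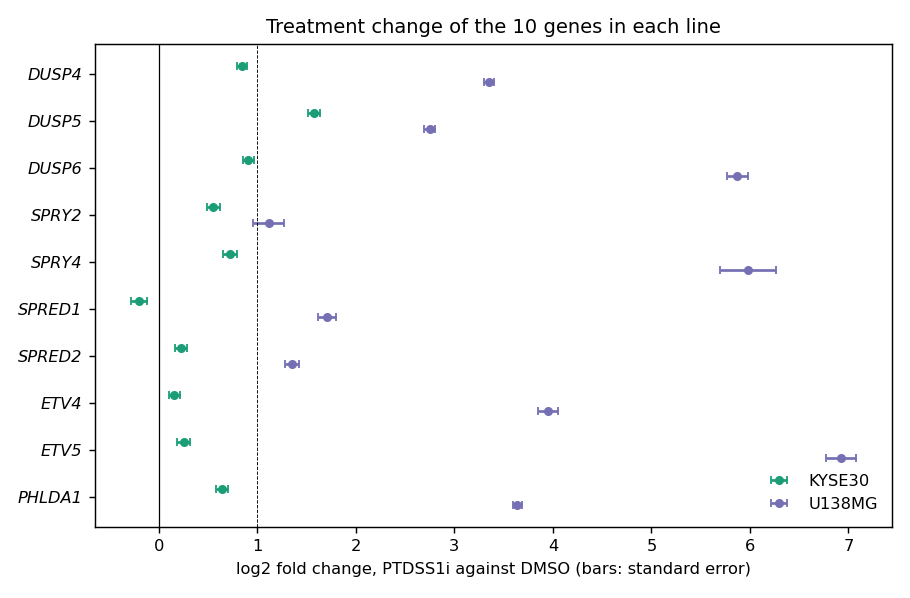
Log2 fold change of PTDSS1i against DMSO for each gene in KYSE30 (green) and in the libraries labelled U138MG (purple), with bars for the standard error and a dashed line at 1. The bars are derived from the edgeR test and are smaller than the standard errors of DESeq2. The KYSE30 values run from -0.20 for *SPRED1* to 1.57 for *DUSP5*, and the purple values from 1.11 for *SPRY2* to 6.93 for *ETV5*.

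The treatment change was larger in the libraries labelled U138MG than in KYSE30 for all 10 genes. In a joint fit over both tables, in which 18405 shared genes were tested, the difference of the log2 fold changes was above 1 for 9 of the 10, as for 10.4% of all genes. *ETV5* had the widest difference, 6.64 (SE 0.181), followed by *SPRY4* at 5.22 (SE 0.294), *DUSP6* at 4.93 (SE 0.129) and *ETV4* at 3.76 (SE 0.113). *SPRY2* had the narrowest at 0.52 (SE 0.137). Between these were *PHLDA1* at 2.96, *DUSP4* at 2.47, *SPRED1* at 1.86, *DUSP5* at 1.14 and *SPRED2* at 1.09, and the median was 2.71. These differences contain the contrast the choice was based on and were not tested.

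In DMSO, every gene of the 10 was lower in the libraries labelled U138MG than in KYSE30, with each DMSO library of the former below each DMSO library of the latter. Of all 18405 genes, 42.9% had this order. On the scale of CPM of the library total, *ETV5* had the widest gap, with 74.9 ± 5.45 in KYSE30 and 0.285 ± 0.0655 in the libraries labelled U138MG (SD, n = 3), a ratio of 263. *SPRY4* followed at 32.6 ± 2.79 against 0.272 ± 0.264, a ratio of 119.9, and then *DUSP6* at 60.8 ± 5.10 against 1.05 ± 0.281, a ratio of 57.8. The narrowest gaps were those of *SPRED1* (17.9 ± 0.854 against 8.80 ± 0.527, a ratio of 2.04), *DUSP5* (ratio 2.88) and *SPRED2* (ratio 3.32). *DUSP4*, *SPRY2*, *ETV4* and *PHLDA1* had ratios of 10.4, 13.8, 15.2 and 16.1. The 3 genes with the widest gaps in DMSO were also the 3 with the largest treatment change in the libraries labelled U138MG, but both values share the same control libraries.

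After PTDSS1i, several of these genes in the libraries labelled U138MG were near the level of untreated KYSE30. *DUSP6* reached 56.7 ± 2.14 CPM of the library total, 0.932 of the KYSE30 DMSO mean, and its libraries overlapped the KYSE30 controls. *ETV4* reached 64.5 ± 1.88, or 0.921 of that mean, and *DUSP4* 145.5 ± 3.53, or 0.884, each with all 3 libraries still just under the KYSE30 controls. *DUSP5* and *SPRED1* went above all KYSE30 controls, at 2.12 and 1.45 times their mean. *PHLDA1*, *SPRED2*, *SPRY4* and *ETV5* stopped at 0.699, 0.696, 0.484 and 0.429 of it, and *SPRY2*, at 6.28 ± 0.224 CPM, stayed at 0.142. Treated KYSE30 had a higher mean than the treated libraries labelled U138MG for every gene except *SPRED1*. The means were 105.8 CPM for *DUSP6*, 274.6 for *DUSP4*, 72.6 for *ETV4* and 134.6 against 102.7 for *DUSP5*. They were 598.5 against 289.0 for *PHLDA1*, 83.0 against 32.1 for *ETV5* and 60.0 against 6.28 for *SPRY2*. *SPRY4* had 50.0 against 15.8 and *SPRED2* 60.6 against 38.8. For *SPRED1* treated KYSE30 was lower, at 14.5 against 25.9. The tables of the 2 lines list different numbers of genes, so levels set across them also carry any difference in counting and batch.

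**Figure D3:**
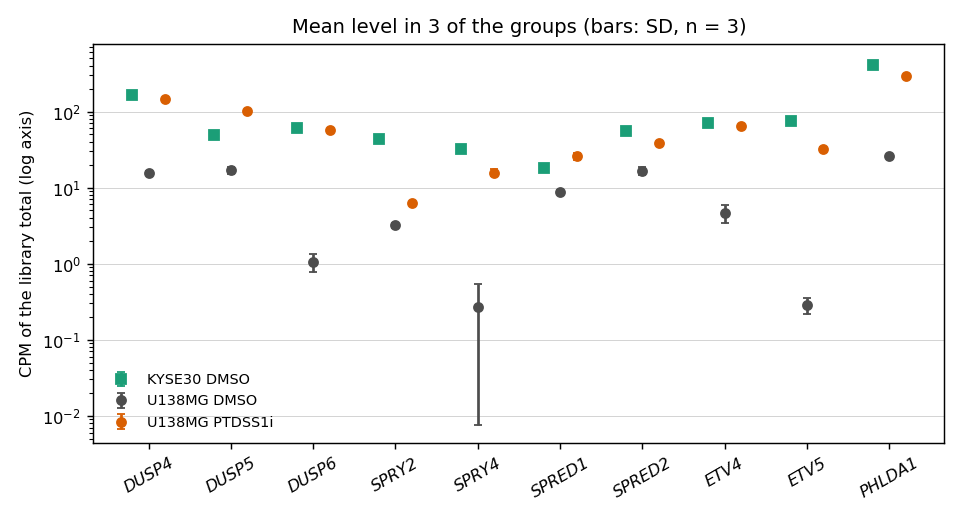
Mean CPM of the library total (log axis) with SD over 3 libraries for KYSE30 in DMSO (green squares) and the libraries labelled U138MG in DMSO (grey) and PTDSS1i (orange). All grey points are below the green squares, while the orange point of *DUSP6* (56.7) lies beside its square (60.8) and that of *SPRY2* (6.28) stays far below its own (44.1).

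Per kilobase of annotated exon, *PHLDA1* was the highest of the 10 in KYSE30 DMSO at 51.2 ± 4.17 CPM per kb, above *DUSP4* at 22.7 ± 0.963. *ETV4* (19.4 ± 0.497) and *DUSP5* (18.6 ± 1.33) came next, with overlapping libraries, and so did *SPRY2* (14.5 ± 1.61), *DUSP6* (13.1 ± 1.10) and *ETV5* (12.9 ± 0.939), whose neighbours in this order overlapped each other. *SPRED2* (10.8 ± 0.442), *SPRY4* (4.97 ± 0.425) and *SPRED1* (2.17 ± 0.103) closed the order and did not overlap. PTDSS1i in KYSE30 moved *DUSP5* to the second place at 51.5 ± 1.03, behind *PHLDA1* at 74.2 ± 1.13, and left *SPRED1* last at 1.76 ± 0.0595 CPM per kb.

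In the libraries labelled U138MG the order began with *DUSP5* at 6.44 ± 0.704 CPM per kb in DMSO. *SPRED2* (3.26 ± 0.380) and *PHLDA1* (3.18 ± 0.160) overlapped, *DUSP4* was at 2.17 ± 0.125, and *ETV4* (1.28 ± 0.340), *SPRED1* (1.07 ± 0.0638) and *SPRY2* (1.06 ± 0.0835) overlapped as neighbours. *DUSP6* was at 0.227 ± 0.0607, and *ETV5* (0.0491 ± 0.0113) and *SPRY4* (0.0414 ± 0.0403) were last and overlapped. With PTDSS1i the order was *DUSP5* (39.3 ± 1.17), *PHLDA1* (35.8 ± 0.687), *DUSP4* (20.1 ± 0.486), *ETV4* (17.9 ± 0.520), *DUSP6* (12.2 ± 0.462), *SPRED2* (7.53 ± 0.233), *ETV5* (5.54 ± 0.287), *SPRED1* (3.14 ± 0.303), *SPRY4* (2.40 ± 0.238) and *SPRY2* (2.07 ± 0.0737), with no overlap between neighbours.

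Exons of 4 of the genes overlap those of another gene, and whether the counting used strand is not given in the sources used here. The antisense gene that covers 40.5% of the *DUSP6* exon bases had 5 counts summed over the DMSO libraries and 134 over the PTDSS1i libraries labelled U138MG, and 5 and 13 in KYSE30. An antisense gene over 553 bases of *PHLDA1* had 39 and 717 counts in the libraries labelled U138MG and 13 and 38 in KYSE30, and another over 779 bases had 30 and 31, and 79 and 49. *ETV4* shares 68 exon bases with *DHX8* on the opposite strand, and *DHX8* had 4893 and 4902 counts in the libraries labelled U138MG and 5560 and 5164 in KYSE30. *ETV5* shares 164 bases with *DGKG* on the same strand, which had 0 counts in the libraries labelled U138MG. Reads of partners on opposite strands cannot be told apart without strand, and those of *ETV5* and *DGKG* in the shared bases cannot be told apart by strand at all.

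Close relatives of the 10 genes gave a mixed picture. Of 14 family relatives, 10 were called higher and 4 lower in KYSE30, with a median log2 fold change of 0.59, and 9 higher, 2 lower and 3 not called in the libraries labelled U138MG, where the median was 1.07. Here and below the calls are those of edgeR's quasi-likelihood test at an adjusted p under 0.05, with 33.9% of all tested genes called higher and 33.6% lower in the libraries labelled U138MG. *DUSP8*, a phosphatase for the stress kinases JNK and p38, rose in KYSE30 from 5.02 ± 0.633 to 31.5 ± 0.579 normalized CPM (log2 fold change 2.66, edgeR adjusted p = 6.36e-16) and in the libraries labelled U138MG from 0.401 ± 0.179 to 11.2 ± 0.371 (4.76, adjusted p = 7.10e-18). *DUSP1*, the immediate-early phosphatase for those kinases, rose in KYSE30 from 11.3 ± 0.340 to 38.2 ± 2.12 (1.76, edgeR adjusted p = 1.42e-14) and in the libraries labelled U138MG from 3.66 ± 0.552 to 48.0 ± 0.354 (3.71, adjusted p = 6.65e-24). Both genes were thus higher in each line. In the libraries labelled U138MG *DUSP8* passed the filter on low counts through the treated group alone, with 0.250 to 0.598 normalized CPM in the DMSO libraries.

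*PHLDA2*, a relative of *PHLDA1*, rose by a log2 fold change of 1.63 in KYSE30 (edgeR adjusted p = 1.45e-04) and of 4.24 in the libraries labelled U138MG (adjusted p = 1.71e-23), where it went from 1.92 ± 0.264 to 36.4 ± 1.84 normalized CPM. *DUSP10*, another JNK and p38 phosphatase, rose by 0.69 and 1.25 (edgeR adjusted p = 2.18e-10 and 4.89e-12). *DUSP2*, a nuclear phosphatase, fell in KYSE30 from 3.55 ± 0.540 to 0.347 ± 0.153 (-3.37, edgeR adjusted p = 7.37e-10) and stood at 2.44 and 2.89 in the libraries labelled U138MG (adjusted p = 0.334). In KYSE30 it passed the filter on low counts through the control group alone. *SPRY1*, another Sprouty gene, fell by 0.26 in KYSE30 (edgeR adjusted p = 7.93e-04) and stood at 13.1 and 13.2 in the libraries labelled U138MG (adjusted p = 0.856). *ETV1*, the remaining PEA3 factor, rose in KYSE30 from 3.64 ± 0.295 to 9.16 ± 0.260 (1.33, edgeR adjusted p = 4.58e-09) and stood at 0.749 ± 0.519 and 1.14 ± 0.0545 in the libraries labelled U138MG (0.62, adjusted p = 0.172). *SPRED3* rose from 1.03 to 3.13 there (1.61, edgeR adjusted p = 3.10e-06). The PEA3 member with the largest log2 fold change was thus *ETV1* in KYSE30 and *ETV5* in the libraries labelled U138MG.

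Among 16 other ERK-responsive genes, of which 15 were tested in KYSE30, 10 were called higher and 2 lower there, with a median log2 fold change of 0.67, and 12 higher and 3 lower in the libraries labelled U138MG, with a median of 0.62. The leading genes averaging at least 1 CPM were all AP-1 subunits in KYSE30, and all but *IER3* in the libraries labelled U138MG. In KYSE30, *FOSB* rose from 2.89 ± 0.168 to 15.9 ± 1.26 normalized CPM (2.46, edgeR adjusted p = 8.99e-14), *JUND* from 193 ± 7.68 to 647 ± 19.1 (1.75, adjusted p = 8.83e-17), *FOS* from 11.9 ± 0.826 to 31.4 ± 2.74 (1.40, adjusted p = 4.39e-12) and *JUN* from 51.8 ± 3.19 to 123 ± 0.732 (1.24, adjusted p = 2.76e-14). In the libraries labelled U138MG, *FOSL1* rose from 1.34 ± 0.419 to 81.0 ± 3.00 (5.92, edgeR adjusted p = 1.30e-26), *JUN* from 26.5 ± 2.09 to 358 ± 3.33 (3.76, adjusted p = 9.88e-31), *FOSB* from 2.21 ± 0.248 to 19.9 ± 1.498 (3.17, adjusted p = 3.64e-19) and *IER3*, an immediate-early survival gene, from 34.6 ± 1.83 to 167 ± 3.21 (2.27, adjusted p = 6.17e-26). *EGR1*, an immediate-early zinc finger factor that ERK induces, went the other way. It fell by 0.37 in KYSE30 (edgeR adjusted p = 9.45e-04) and by 0.32 in the libraries labelled U138MG (adjusted p = 4.25e-05).

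The genes of the cascade itself had mostly small log2 fold changes. Of 24 genes from adaptors to kinases, 15 were called higher and 2 lower in KYSE30 and 15 and 3 in the libraries labelled U138MG, with medians of 0.18 and 0.19. None passed a log2 fold change of 1 in KYSE30. In the libraries labelled U138MG *RPS6KA2*, a kinase downstream of ERK, rose from 36.7 ± 2.01 to 138.3 ± 2.87 normalized CPM (1.91, edgeR adjusted p = 4.17e-24) and *MAP2K1*, which encodes MEK1, from 69.7 ± 3.73 to 144 ± 2.52 (1.05, adjusted p = 7.58e-19). Of 7 ternary complex factors, capicua and their partners, 5 were called higher in each line, with none lower in KYSE30 and 1 lower in the libraries labelled U138MG, and medians of 0.21 and 0.36. The lower gene, named after its values were seen, was *ATXN1L*, a capicua partner (log2 fold change -0.12, edgeR adjusted p = 0.0155). *CIC*, which encodes capicua, rose in KYSE30 from 123 ± 6.36 to 183 ± 4.42 (0.58, edgeR adjusted p = 3.55e-09) and stood at 90.1 ± 0.287 and 94.1 ± 0.955 in the libraries labelled U138MG (0.06, adjusted p = 0.153).

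**Figure D4:**
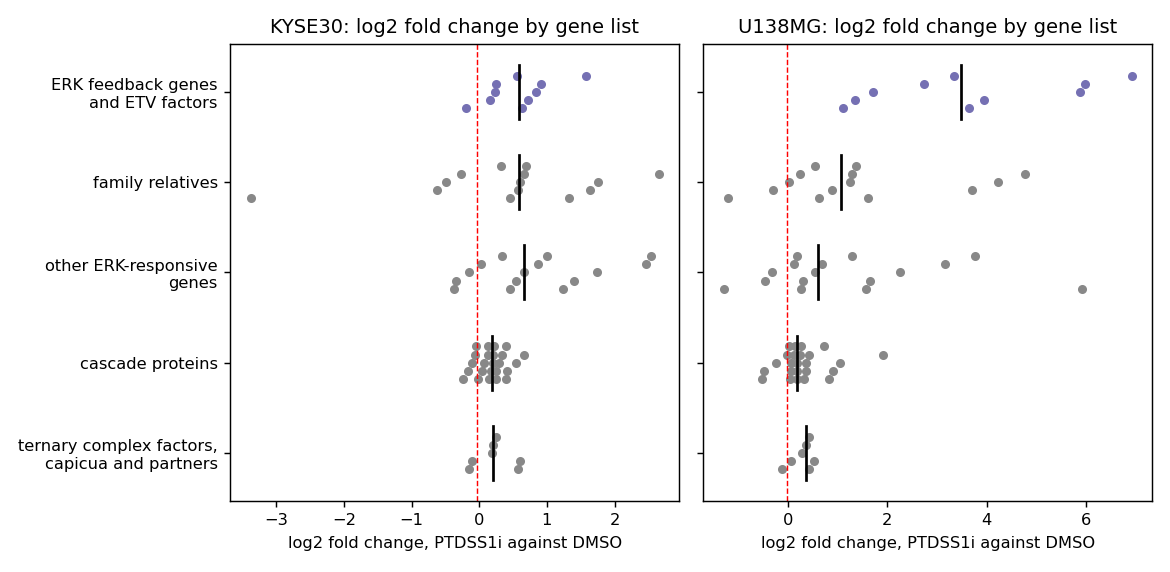
Log2 fold change of each tested gene (points) by list in KYSE30 and in the libraries labelled U138MG, with a black line at each list's median and a red dashed line at the median of all tested genes. The medians of the 10 genes are 0.59 and 3.49, and those of the 24 cascade genes are 0.18 and 0.19.

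The genes whose pattern over the 12 libraries was most like that of *ETV5*, by the root mean square difference of log2 CPM centred within each line, were *TUBB2B* (0.21), *PHLDA1* (0.22), *UPP1* (0.23) and *ETV4* (0.23), where the median over 10208 candidates was 1.40. For *DUSP6* they were *UPP1* (0.24), *ETV5* (0.28), *JUN* (0.29) and *FOSL1* (0.29), against a median of 1.56. *TUBB2B*, a beta tubulin, had log2 fold changes of 0.50 in KYSE30 and 4.04 in the libraries labelled U138MG, and *UPP1*, a uridine phosphorylase, of 0.41 and 4.79. The measure uses the treatment change of both lines, so it describes likeness and is no test of it. The log was taken after adding 2 CPM, which shrinks the change of genes that are low in the controls, such as *ETV5* and *DUSP6*.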

How the data were processed

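The authors deposited 1 table of raw counts per line, whole numbers of reads per gene in 6 libraries each, with no normalization. The submitters' processing notes name Trimmomatic, STAR, featureCounts and hg38, and neither annotation nor strand setting is given in the sources used here. Poly-A libraries were made with a TruSeq v2 kit from TRIzol RNA. Groups came from the sample labels. The 10 genes and all lists were chosen with earlier results of these data known.

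Counts were filtered (filterByExpr, minimum count 10, total 15), scaled by TMM and compared within each line by edgeR 4.0.16 (R 4.3.3, robust quasi-likelihood test, Benjamini-Hochberg adjustment over all tested genes, threshold 0.05, with calls past a log2 fold change of 1 also counted). In 3 against 3 libraries an exact permutation test cannot go below p = 0.1. The tests were run on simulated counts with 200 changed genes, far fewer than the 10165 called in KYSE30 and 11919 in U138MG. That simulation therefore does not cover changes as broad as these. Replicates differed by more than sampling noise (ratio of chi-square to degrees of freedom from 2.29 upwards), and the common biological coefficient of variation was 0.0549 in KYSE30 and 0.0452 in U138MG. Each SE is the absolute edgeR log2 fold change, or difference of changes, divided by the square root of its F statistic. DESeq2 gave a larger SE for the change of each member in both lines. In the libraries labelled U138MG it gave 0.353 for *ETV5*, 0.636 for *SPRY4* and 0.191 for *DUSP6*, against 0.153, 0.286 and 0.109. Counting intervals cover counting error only. In KYSE30, same-numbered libraries deviated together (correlations of 0.223, 0.167 and 0.159 over 11416 genes), and libraries of different numbers had -0.218 to 0.0815. The labels give no pairing, and whether the numbers pair the samples was not tested. The main tests are unpaired, with a replicate block among the alternatives.

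Named genes were the 10, 6 fixed relatives or regulators (*ETV1*, *SPRY1*, *DUSP1*, *DUSP10*, *CIC*, *EGR1*), in each list and line at most 4 called genes past a log2 fold change of 1 averaging 1 CPM or more, and the 4 genes most like *ETV5* and *DUSP6* averaging 5 CPM or more. For the likeness of patterns and the deviations of replicates, 2 CPM was added to each normalized value before the log. Exons came from GENCODE (GRCh38), which may not be the authors' annotation, and promoters from RefSeq. Alternatives were other scalings and filters, DESeq2 1.42.0, leaving out single libraries, both lines together, a replicate block and a threshold of 0.01. Figures were drawn with matplotlib 3.10.9.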

Additional observations from a re-analysis of the deposited data

Results flagged for a closer look

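*SPRED1* had a log2 fold change of -0.20 in KYSE30 and of 1.70 in the libraries labelled U138MG. It was singled out because every treated library lay below every control in KYSE30 and above every control in the libraries labelled U138MG. The difference between the lines was not tested, and the KYSE30 call was lost in 8 of 14 alternative settings.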

How the results depend on the processing

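The count of genes called higher in KYSE30 was 9 and ranged from 7 to 9 over 14 alternatives, with 7 under scaling to library size alone. The count called lower was 1, *SPRED1*, and became 0 in DESeq2, with no filter on low counts, with both lines fitted together and at an adjusted p under 0.01, and between 0 and 1 when 1 library was left out. Scaling to library size alone moved the pathway list genes called lower in KYSE30 from 8 to 13. It moved the median log2 fold change of all genes from -0.025 to -0.13 in KYSE30 and from -0.026 to -0.17 in U138MG. The calls over all genes went from 4927 higher and 5238 lower to 3932 and 6460 in KYSE30, and from 5989 and 5930 to 4533 and 7694 in U138MG (4545 and 7691 with upper-quartile scaling). In U138MG the members past a log2 fold change of 1 numbered between 8 and 10, *ETV5* ranged from 6.78 to 7.14 and *SPRY4* from 5.45 to 7.11. A minimum of 10 counts in every library dropped both. These values are a description, since that contrast was part of the choice of genes. Of all genes tested there, 8.19% were called past 1 upwards in the main fit. No log2 fold change of the 10 genes reversed among the alternatives run, and the directions of single list genes were not compared across them. Of the 10 genes, those whose change was larger in U138MG by more than 1 numbered 7 to 9, also as a description. In the main fit 10.4% of all genes had such a difference.

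With the replicate block, 9 genes were higher and 1 lower in KYSE30, and the block changed no call of the 10 genes there. Of all 16389 genes tested there, the block called 5081 higher and 5377 lower. In U138MG all 10 genes had a higher level with the block too, which is a description, since that contrast was part of their choice. The block called 6019 of all 17666 genes higher there. In U138MG, same-numbered libraries had deviation correlations of -0.0997, 0.0300 and 0.116 over 11901 genes, and libraries of different numbers had -0.195 to 0.179. A pairing of those samples was not tested. Depth limits *ETV5*, *SPRY4* and *DUSP6* in the U138MG controls, where 1 library held as few as 1 count of *SPRY4*.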
